A study of Mus musculus with 20 samples.

Results

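The smooth muscle contractile genes are described here across tissue recombinants, grafts in which mouse epithelial cells are grown with mesenchyme of the rat urogenital sinus, an embryonic tissue able to direct prostate growth. The 36 genes were taken by name, from a list covering actin, myosin, dense body, adhesion, calcium, heat shock and transcription roles. All 36 were found among the 23284 genes of the deposited table, and all 36 passed the filter on low values that left 13456 genes. Passing meant a log2 value of 5 or more in at least 4 of the 20 libraries.

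Smooth muscle shortens when calcium activates myosin light chain kinase, which phosphorylates the myosin light chain and lets smooth muscle myosin pull on actin filaments. The filaments are anchored in dense bodies and at membrane plaques, and the phosphatase that removes the phosphate sets how long tension lasts. Serum response factor (SRF) binds the CArG box, a short DNA motif, and with its cofactor myocardin switches on most of these genes together. In the prostate and the seminal vesicle, smooth muscle surrounds the epithelial ducts and expels secretion, and prostatic smooth muscle arises from urogenital mesenchyme.

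Each of 5 groups had 4 libraries of poly-A RNA: SVE (seminal vesicle epithelium, genotype given as wild type), PE (prostate epithelium, also given as wild type), and SVE epithelium carrying mNKX3.1, UTY_sh or both. All groups shared the Sprague Dawley rat mesenchyme and collection 3 months after implantation. The mouse background is given as a hybrid of 129/SvImJ and C57Bl/6J in one field, while another names C57Bl/6J donors 2 months old. Host mice drank doxycycline for 3 months to induce a pTRIPZ vector, and the same protocol names a wild-type and a point-mutant construct, so mNKX3.1 is used only as labelled. It does not say whether SVE and PE cells carried an empty vector. Whether libraries came from separate animals, pooled grafts or single clones of cells is not given in the labels, so each p-value reflects only how far these libraries vary, which could be technical variation. Replicate numbers only name libraries.

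The hairpin's target followed the labels in one contrast and not in the other. Uty, the gene named by the hairpin, read 8.98 to 9.52 in UTY_sh and 9.04 to 9.55 in SVE, with overlapping ranges. In mNKX3.1+UTY_sh it read 9.09 to 9.29, all below mNKX3.1 at 10.07 to 10.31 (-1.08, SE 0.11, limma adjusted p = 1.37e-07) but within the range of SVE, and PE, which carries no hairpin label, read 10.13 to 10.45. Directions drawn from these groups therefore belong to the libraries as labelled. SVE libraries held 20260000 to 25000000 reads, recovered from the step size of the values. PE had 14930000 to 20820000 and the mNKX3.1 grafts 15470000 to 21860000, the shallowest groups. UTY_sh had 22520000 to 24950000, and the grafts with both labels 24050000 to 29810000. How reads from rat cells were handled is not stated in the labels or the notes. Since the mesenchyme, the tissue from which prostatic smooth muscle arises, was rat, the contractile values may hold rat transcripts matched to mouse genes. How large that share is was not measured, and it touches the levels per kb and the mouse promoter windows given below.

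The question of the first comparison is how the contractile genes stood in prostate-epithelium grafts against seminal vesicle grafts. On the deposited scale, 34 of the 36 genes were lower in PE than in SVE and 1, the potassium channel gene Kcnma1, was higher; scaled to the library total instead, 4 were lower and 3 higher, and 8 genes changed sign (Ppp1r12b, Actn1, Ldb3, Vcl, Cav1, Casq2, Hspb6 and Srf). The test was limma's moderated test with Benjamini-Hochberg adjustment over all genes, at an adjusted p of 0.05, which called 30.4% of all genes lower and 31.8% higher (62.1% in all). The median difference of the members was -0.95 on the log2 scale, beside 0.02 over all genes tested. At least 2-fold lower were 14 members, against 7.95% of all genes. Every PE library lay below every SVE library for 32 genes and above for Kcnma1, beside 23.6% and 25.3% of all genes. The ranges of Ldb3, Casq2 and Hspb6 overlapped.

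How the libraries are scaled matters to every one of these differences. Scaling to the library total, a setting chosen after seeing the data, raises each PE minus SVE difference by 0.77, and each mNKX3.1 minus SVE difference by 0.78. On that scale 78.2% of all genes were called higher and 6.53% lower, with a median of 0.79 over all genes and -0.18 over the members, which thus still lay below the bulk of genes. The seminal vesicle secretory gene Svs2 read 21.57 to 22.42 in SVE and 13.86 to 17.32 in PE, and its part in that shift was not tested. On the share scale the 36 genes took 1.09% ± 0.352 of reads in SVE and 0.908% ± 0.111 in PE (SD, n = 4), with overlapping ranges. As a sum of normalised reads they reached 236000 to 374000 in SVE and 129000 to 169000 in PE, which do not overlap. With libraries centred on the housekeeping list the shares of all genes called became 18% higher and 48% lower, and 36 members were called, with Ldb3 among the lower. With libraries centred on the fibroblast and matrix list, also chosen after seeing the data, 31 members were called, the members' median was -0.60 and that of all genes 0.37, with 48.1% of all genes higher and 12.2% lower. In bulk RNA, fewer muscle cells and less RNA per muscle cell cannot be told apart.

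**Figure D1:**
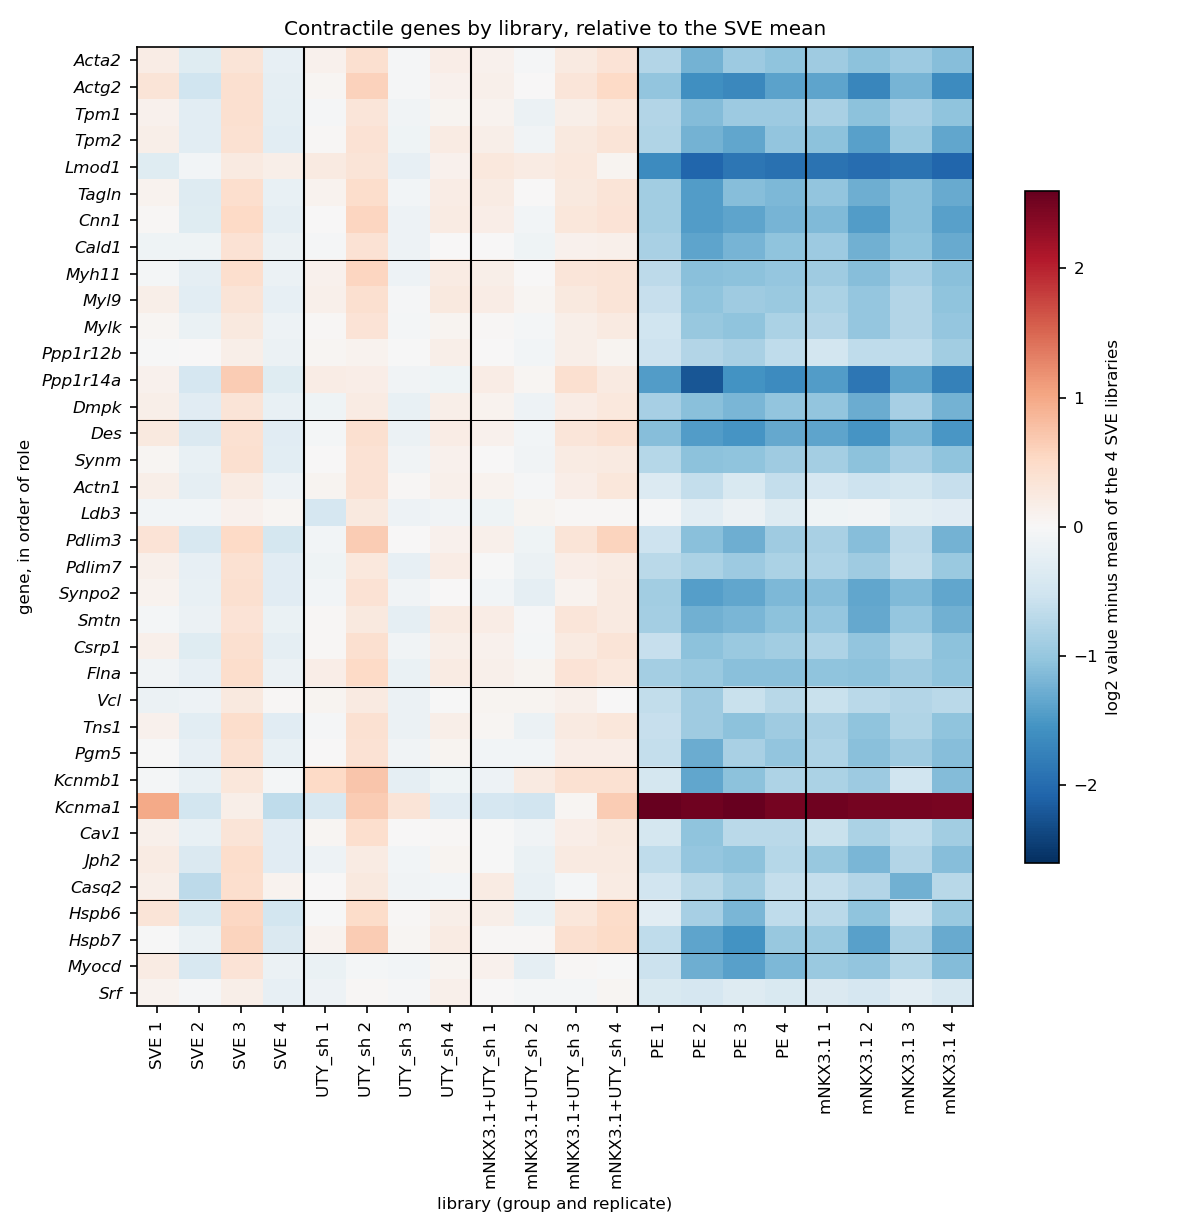
Each cell is the log2 value of 1 gene in 1 library minus the mean of the 4 SVE libraries, with genes in order of role (rows) and libraries in order of group (columns). On the deposited scale the 8 PE and mNKX3.1 libraries are blue for most genes and red for Kcnma1 (scaled to the library total, 8 genes change sign in PE), and the 12 other libraries are pale.

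The 2 transcription members are the regulators of the programme. Myocd, which encodes myocardin, read 7.84, 7.21, 7.98 and 7.48 in SVE and 7.06, 6.36, 6.21 and 6.46 in PE. All 4 PE libraries lay below all 4 SVE libraries, by -1.11 on the log2 scale (SE 0.17, limma adjusted p = 1.81e-05). Srf read 9.86, 9.74, 9.93 and 9.56 in SVE and 9.37, 9.34, 9.43 and 9.37 in PE. Its PE libraries were also all below SVE, but the difference was small, -0.39 (SE 0.07, limma adjusted p = 8.32e-05), and it became 0.38 when libraries were scaled to their total. Srf was also set against Acta2 in the same library, a ratio that a constant shift of all log2 values of a library leaves unchanged. That ratio was 0.61 higher in PE than in SVE (log2 ratio -4.16 ± 0.178 against -4.78 ± 0.201, SD, n = 4, exact two-sided permutation p = 0.0286). That p is the smallest that 4 against 4 can give.

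Sequences just before the start of 5 members are shown so that the CArG box, the motif that SRF binds, can be read in place. They are the 250 bases before the RefSeq gene start on GRCm38.p6, a later build than the mm9 of the deposited table, and are written 5′ to 3′ along the gene. Capitals mark either a CArG box (CC, a core of A and T letters, GG) or a near match with 1 core letter G or C; the motif reads alike on both strands. The windows are chr19:34255374-34255623 (minus strand) for Acta2, chr2:156775214-156775463 (plus) for Myl9, chr17:46556163-46556412 (minus) for Srf, chr14:34588608-34588857 (minus) for Ldb3 and chr14:24004206-24004455 (minus) for Kcnma1.
Acta2: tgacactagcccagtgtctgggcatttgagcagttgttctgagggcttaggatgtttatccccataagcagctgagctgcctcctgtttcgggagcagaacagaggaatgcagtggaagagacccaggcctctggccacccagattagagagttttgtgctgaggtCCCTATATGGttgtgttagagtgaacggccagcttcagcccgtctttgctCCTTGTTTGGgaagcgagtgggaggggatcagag
Myl9: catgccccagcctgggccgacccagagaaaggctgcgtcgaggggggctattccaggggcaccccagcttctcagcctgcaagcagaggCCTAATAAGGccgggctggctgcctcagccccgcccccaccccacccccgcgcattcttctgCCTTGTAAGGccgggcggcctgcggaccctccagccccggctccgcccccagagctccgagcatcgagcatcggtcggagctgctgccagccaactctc
Srf: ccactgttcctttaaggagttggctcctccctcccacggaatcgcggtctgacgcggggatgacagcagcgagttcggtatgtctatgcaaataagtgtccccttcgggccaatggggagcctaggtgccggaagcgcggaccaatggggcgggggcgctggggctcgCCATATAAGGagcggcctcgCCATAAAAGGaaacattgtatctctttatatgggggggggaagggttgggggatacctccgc
Ldb3: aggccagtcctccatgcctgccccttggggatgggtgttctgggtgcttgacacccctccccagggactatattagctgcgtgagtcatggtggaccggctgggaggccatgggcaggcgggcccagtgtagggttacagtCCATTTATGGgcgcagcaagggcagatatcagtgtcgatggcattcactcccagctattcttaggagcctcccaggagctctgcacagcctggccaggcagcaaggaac
Kcnma1: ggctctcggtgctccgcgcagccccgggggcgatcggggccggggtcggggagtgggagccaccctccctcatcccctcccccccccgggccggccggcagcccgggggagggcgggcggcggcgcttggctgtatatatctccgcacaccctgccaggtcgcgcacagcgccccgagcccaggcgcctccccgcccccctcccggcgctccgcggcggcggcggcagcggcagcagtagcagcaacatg

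Srf itself holds 2 CArG boxes, 82 and 62 bases before its start. Acta2 holds 2 near matches, 84 and 34 bases before the start, and Myl9 holds a box at 161 and a near match at 99. Ldb3, the member that was not called, holds a box at 109 in the window shown, and Kcnma1, the member that was higher, has none of these letters in its window. Of the 36 members, 32 had an entry in the table of sequences, with 39 windows. A CArG box was present in 5 of those windows, of Ldb3, Myl9, Srf and Vcl, against 1.47% of all 32851 windows, and a near match in 7, of Acta2, Hspb6, Jph2, Myl9, Pdlim3 and Synm, against 7.24%. Ldb3 counts 2 overlapping windows with the same box, and Jph2 2 with the same near match.

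Thin filament genes were lower in PE in 8 of 8 cases, 7 of them by at least 2-fold, with a median difference of -1.14. Acta2, the smooth muscle alpha-actin, read 14.74, 14.23, 14.88 and 14.32 in SVE and 13.78, 13.32, 13.59 and 13.49 in PE. The groups did not overlap and differed by -1.0 (SE 0.14, limma adjusted p = 5.21e-06), that is 2.0-fold. Actg2, the gamma-actin of visceral smooth muscle, read 13.46, 12.61, 13.55 and 12.90 in SVE and 12.11, 11.53, 11.46 and 11.73 in PE. It differed by -1.42 (SE 0.20, limma adjusted p = 7.07e-06), or 2.67-fold, without overlap. Actg2 relative to Acta2 was -1.42 ± 0.154 in SVE and -1.83 ± 0.206 in PE (log2 ratio, SD, n = 4, exact two-sided permutation p = 0.0286), so the visceral isoform was the lower of the pair by a further 0.42.

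Lmod1, leiomodin, which starts new actin filaments, had the largest difference of the thin filament genes. It read 11.09, 11.34, 11.65 and 11.57 in SVE and 9.77, 9.35, 9.53 and 9.48 in PE. The gap between the lowest SVE and the highest PE library exceeds the range within either group, and the difference was -1.88 (SE 0.12, limma adjusted p = 2.28e-10), or 3.69-fold. Relative to Acta2 it was -3.13 ± 0.398 in SVE and -4.01 ± 0.0395 in PE (SD, n = 4, exact two-sided permutation p = 0.0286). Tagln, the actin-bundling protein SM22, read 14.68, 14.26, 15.02 and 14.40 in SVE and 13.69, 13.14, 13.48 and 13.43 in PE, a difference of -1.16 (SE 0.15, limma adjusted p = 3.04e-06). Cnn1, calponin, which damps myosin activity on the filament, read 13.72, 13.37, 14.19 and 13.44 in SVE and 12.77, 12.22, 12.30 and 12.48 in PE, a difference of -1.24 (SE 0.17, limma adjusted p = 7.22e-06). Neither gene's groups overlapped. Tpm1, a tropomyosin, was the thin filament gene that differed least, from 13.68, 13.29, 13.97 and 13.30 in SVE to 12.79, 12.43, 12.61 and 12.62 in PE (-0.95, SE 0.14, limma adjusted p = 8.38e-06). The remaining members, Tpm2 and the actin-binding Cald1, differed by -1.09 and -1.12.

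**Figure D2:**
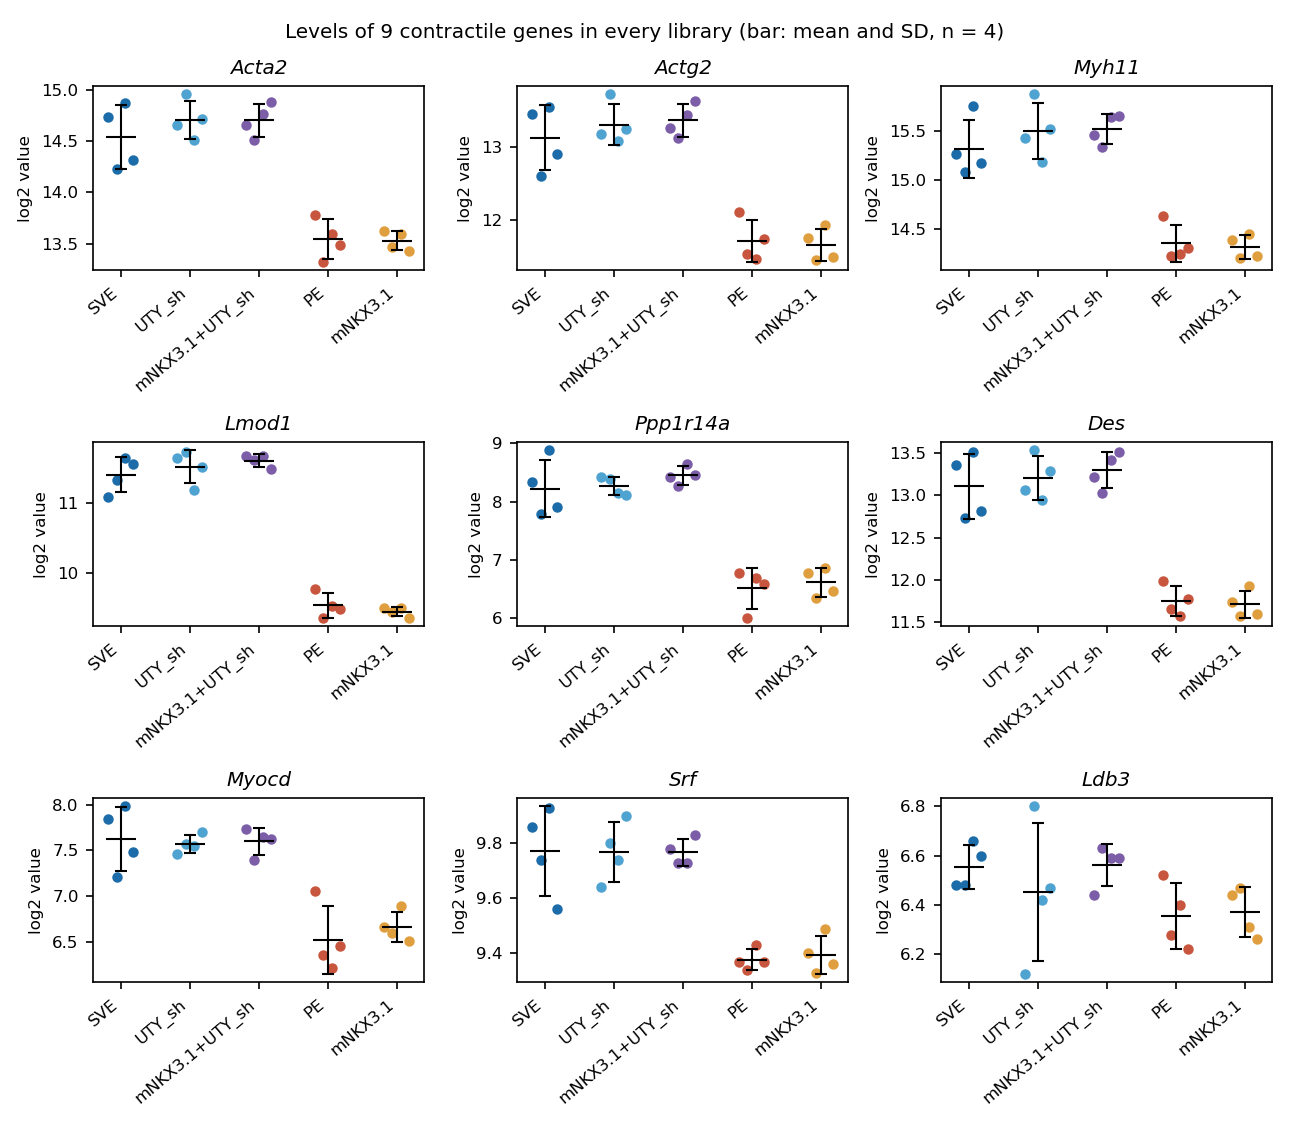
Each point is the log2 value of a gene in 1 library, and bars give the mean and SD of the 4 libraries of a group. For Acta2, Actg2, Myh11, Lmod1, Ppp1r14a, Des, Myocd and Srf the 4 PE and 4 mNKX3.1 points lie below all 12 others on the deposited scale (scaled to the library total, the Srf difference becomes positive), while Ldb3 overlaps.

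Myosin and the genes that regulate it were lower in PE in 6 of 6 cases, with a median of -0.93. Myh11, the smooth muscle myosin heavy chain, read 15.26, 15.08, 15.75 and 15.17 in SVE and 14.63, 14.22, 14.25 and 14.31 in PE. These groups did not overlap and differed by -0.96 (SE 0.15, limma adjusted p = 2.95e-05). Mylk, the light chain kinase, read 13.78, 13.56, 13.99 and 13.59 in SVE and 13.22, 12.75, 12.68 and 12.90 in PE, again without overlap (-0.84, SE 0.12, limma adjusted p = 8.81e-06). The phosphatase side held both the largest and the smallest difference. Ppp1r14a, the inhibitor CPI-17 that keeps the phosphatase off, read 8.33, 7.78, 8.88 and 7.91 in SVE and 6.78, 6.00, 6.68 and 6.59 in PE. It differed by -1.71 (SE 0.20, limma adjusted p = 9.02e-07), or 3.28-fold. Ppp1r12b, a targeting subunit of the phosphatase, read 9.34, 9.36, 9.50 and 9.20 in SVE and 8.82, 8.58, 8.5 and 8.70 in PE. It differed by -0.70 (SE 0.09, limma adjusted p = 1.93e-06) and by 0.08 when scaled to the library total. The light chain Myl9 and the kinase gene Dmpk differed by -0.89 and -1.04.

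Dense body and intermediate filament genes were lower in 9 of 10 cases, with a median of -0.95. Des, desmin, the muscle intermediate filament, read 13.36, 12.73, 13.51 and 12.82 in SVE and 11.99, 11.66, 11.58 and 11.78 in PE. The groups did not overlap, and it had the largest difference of this role, -1.35 (SE 0.17, limma adjusted p = 1.43e-06). Smtn, smoothelin, a marker of contractile smooth muscle, read 11.11, 11, 11.52 and 10.99 in SVE and 10.28, 9.91, 9.97 and 10.09 in PE, lower without overlap (-1.1, SE 0.13, limma adjusted p = 6.56e-07). Ldb3, a Z-disc protein better known from striated muscle, read 6.48, 6.48, 6.66 and 6.60 in SVE and 6.52, 6.28, 6.40 and 6.22 in PE. It did not pass the test (-0.20, 95% interval -0.45 to 0.05, limma adjusted p = 0.151), and its values lie nearer the compressed low end of the scale than those of most members. The other 7 genes differed by between -0.50 for the crosslinker Actn1 and -1.21 for the actin-binding Synpo2, including the filamin gene Flna at -1.0.

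Adhesion genes, which tie filaments to the membrane, were lower in 3 of 3 cases. Pgm5, a protein of adherens junctions in muscle, read 12.77, 12.57, 13.18 and 12.59 in SVE and 12.15, 11.48, 11.93 and 11.75 in PE (-0.95, SE 0.14, limma adjusted p = 1.64e-05). Vcl, vinculin, read 11.73, 11.75, 12.15 and 11.93 in SVE and 11.26, 10.97, 11.32 and 11.17 in PE (-0.71, SE 0.09, limma adjusted p = 3.31e-06), and 0.06 when scaled to the library total. Neither pair of groups overlapped on the deposited scale. Both small heat shock genes were lower. Hspb6, whose protein Hsp20 relaxes smooth muscle when phosphorylated, read 10.35, 9.61, 10.56 and 9.53 in SVE and 9.73, 9.15, 8.83 and 9.35 in PE. The highest PE library exceeded 2 SVE libraries, and the difference was -0.75 (SE 0.22, limma adjusted p = 0.00673). Hspb7 read 8.10, 7.94, 8.69 and 7.73 in SVE and 7.45, 6.74, 6.56 and 7.12 in PE, without overlap (-1.15, SE 0.22, limma adjusted p = 0.000155).

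The membrane and calcium genes split. Kcnma1 encodes the pore of the large-conductance calcium-activated potassium channel, and Kcnmb1 encodes its smooth muscle beta subunit. Kcnma1 read 9.50, 8.05, 8.66 and 7.86 in SVE and 11.10, 11.04, 11.11 and 11 in PE, so the PE libraries were tight and all above SVE. The difference was 2.54 (SE 0.30, limma adjusted p = 8.87e-07), or 5.82-fold higher. Kcnmb1 went the other way, from 6.98, 6.85, 7.32 and 6.99 in SVE to 6.57, 5.68, 5.96 and 6.23 in PE (-0.92, SE 0.22, limma adjusted p = 0.00115). The log2 ratio of pore to beta subunit was 1.49 ± 0.722 in SVE and 4.95 ± 0.369 in PE (SD, n = 4, exact two-sided permutation p = 0.0286). Casq2, which stores calcium in the sarcoplasmic reticulum, read 7.79, 6.94, 8.07 and 7.72 in SVE and 7.13, 6.91, 6.73 and 7.02 in PE. SVE replicate 2 lay among the PE libraries, and the difference was -0.68 (SE 0.19, limma adjusted p = 0.0045). Cav1, of membrane caveolae, and Jph2, which joins the reticulum to the membrane, differed by -0.72 and -0.87.

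Within each of SVE, UTY_sh and mNKX3.1+UTY_sh, 12 libraries together, Kcnma1 had the widest spread of the members. Its SD was 0.74, 0.51 and 0.53. It did not always part from them, since all 36 members lay above the group mean in SVE replicate 3 and UTY_sh replicate 2. Its 4 highest values in the 12 libraries were 9.50 in SVE replicate 1, 9.18 in UTY_sh replicate 2, 9.17 in mNKX3.1+UTY_sh replicate 4 and 8.86 in UTY_sh replicate 3. Pbsn, the prostate secretory gene probasin, read 15.71, 13.81, 15.06 and 14.81 in the same libraries. In the other 8 of these libraries Pbsn ran from 5.29 to 12.56, and in PE from 17.37 to 18. Pbsn therefore moved with Kcnma1 between libraries, and its part in the Kcnma1 difference was not tested. SVE replicate 3 is an exception, with Kcnma1 at 8.66 and Pbsn at 6.59.

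**Figure D3:**
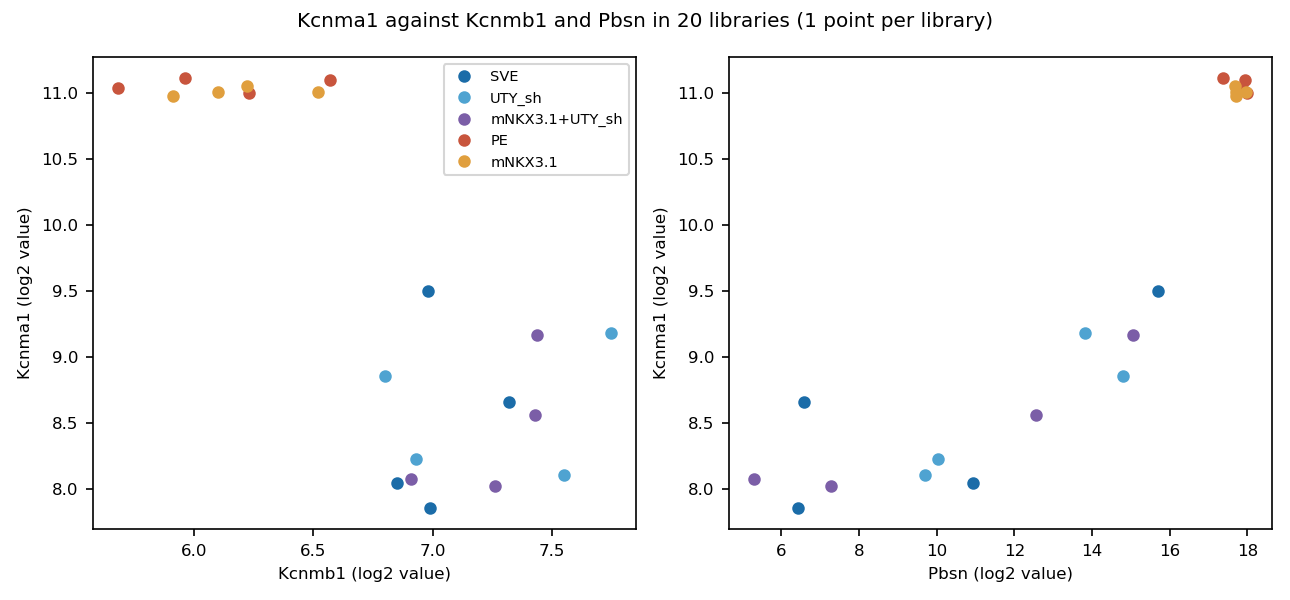
The log2 value of Kcnma1 (vertical axis) is drawn against that of Kcnmb1 (left) and Pbsn (right), with 1 point per library coloured by group. The 8 PE and mNKX3.1 libraries lie together at 10.98 to 11.11 for Kcnma1, and the other 12 spread from 7.86 to 9.50.

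Levels between genes were compared per kb of exon, using the exon union of GENCODE vM21 on GRCm38. Tagln stood highest in SVE with 15490 ± 3711 normalised reads per kb (SD, n = 4), followed by Acta2 with 11080 ± 2410, Csrp1 with 9027 ± 2157, Myl9 with 7050 ± 1426 and Myh11 with 6279 ± 1412. The ranges of neighbours in that order overlapped. The first 5 places were the same in PE, from 6869 ± 1064 for Tagln to 3188 ± 445.8 for Myh11. Ldb3 was lowest in both, with 15.4 ± 0.958 in SVE and 13.5 ± 1.26 in PE. Kcnma1 moved from place 35 in SVE, at 30.2 ± 16.7, to place 28 in PE, at 159 ± 5.84 normalised reads per kb. These levels are antilogs of the deposited values, in which low values are compressed. For low genes such as Ldb3, and for Kcnma1 in SVE, they are therefore not exact read levels.

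The second comparison asks what the construct labelled mNKX3.1 does in SVE epithelium. On the deposited scale 34 members were lower than in SVE and 1, Kcnma1, was higher, while Ldb3 was not called (-0.18, limma adjusted p = 0.182); scaled to the library total, 6 were lower and 3 higher, and 6 genes changed sign (Ppp1r12b, Actn1, Ldb3, Vcl, Cav1 and Srf). Limma called 30.6% of all genes lower and 31.7% higher (62.3% in all). The members' median was -0.97 beside 0.02 over all genes, and 16 members were at least 2-fold lower, beside 8.09% of all genes. No overlap was seen for 34 lower genes and for Kcnma1, beside 27.2% and 27.7% of all genes, and Casq2 overlapped. With libraries centred on the housekeeping list the shares of all genes called were 18.1% higher and 47.8% lower, on the fibroblast list 46.1% and 13%, and scaled to the library total 78.8% and 6.54%. This comparison shares its SVE libraries with the first.

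Acta2 read 13.62, 13.47, 13.59 and 13.43 in mNKX3.1, all below SVE (-1.02, SE 0.14, limma adjusted p = 4.39e-06). Lmod1 read 9.49, 9.43, 9.50 and 9.35, the tightest of the thin filament genes there, and differed by -1.97 (SE 0.12, limma adjusted p = 1.19e-10). Ppp1r14a, the phosphatase inhibitor, read 6.77, 6.35, 6.86 and 6.46 (-1.62, SE 0.20, limma adjusted p = 1.84e-06). Each of the 3 genes thus fell without overlap. Des read 11.74, 11.58, 11.93 and 11.60 (-1.39, SE 0.17, limma adjusted p = 9.84e-07). The regulators Myocd and Srf read 6.51 to 6.89 and 9.33 to 9.49, and differed by -0.97 and -0.37. Kcnma1 read 11.05, 11.01, 11.01 and 10.98, a difference of 2.49 (SE 0.30, limma adjusted p = 1.12e-06).

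The mNKX3.1 and PE grafts were compared directly. Limma called 0 of the 36 members, and 0% of all genes; at an unadjusted p under 0.05 it found 0 members and 65 genes (0.483%). Member differences ran from -0.16 for Casq2 to 0.14 for Myocd, with a median of -0.02, and the ranges of all 36 overlapped. Of all genes, 0.245% were higher and 0.394% lower without overlap. Across the 8 libraries Myocd read 6.21 to 7.06 and Kcnma1 10.98 to 11.11. When nothing differs, a threshold of 0.05 alone would pass a larger share of genes, here and in the hairpin comparisons with SVE below. The fit shared 1 spread over all 5 groups, while the members' median SD was 0.15 in mNKX3.1 and 0.19 in PE, beside 0.32 in SVE. A missed threshold does not show that the groups are alike.

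The hairpin alone was compared with SVE. Limma called 0 members and 0% of all genes in UTY_sh, with 0 members and 316 genes (2.35%) at an unadjusted p under 0.05. The members' differences lay between -0.10 for Ldb3 and 0.25 for Hspb7, with a median of 0.10. Above zero were 34 of 36 members, beside 6910 of all 13456 genes. Members tend to deviate together within a library, so these are not 36 separate signs. All 36 ranges overlapped, and only 0.617% of all genes were higher and 0.609% lower without overlap. Acta2 read 14.66, 14.96, 14.51 and 14.72, a difference of 0.16 (95% interval -0.13 to 0.45). Lmod1 read 11.65, 11.74, 11.20 and 11.52, a difference of 0.11 (95% interval -0.14 to 0.36). Those intervals leave out the decreases seen in PE. Libraries with both labels gave a similar count against SVE: limma called 0 members and 0% of all genes, with 0 members and 557 genes (4.14%) at an unadjusted p under 0.05. There the median was 0.12 and 33 members were above zero, beside 7071 of all 13456 genes. Again all 36 ranges overlapped, and 1.15% of all genes were higher and 1.28% lower without overlap. Myh11 read 15.46, 15.33, 15.64 and 15.65, a difference of 0.20 (95% interval -0.12 to 0.53).

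**Figure D4:**
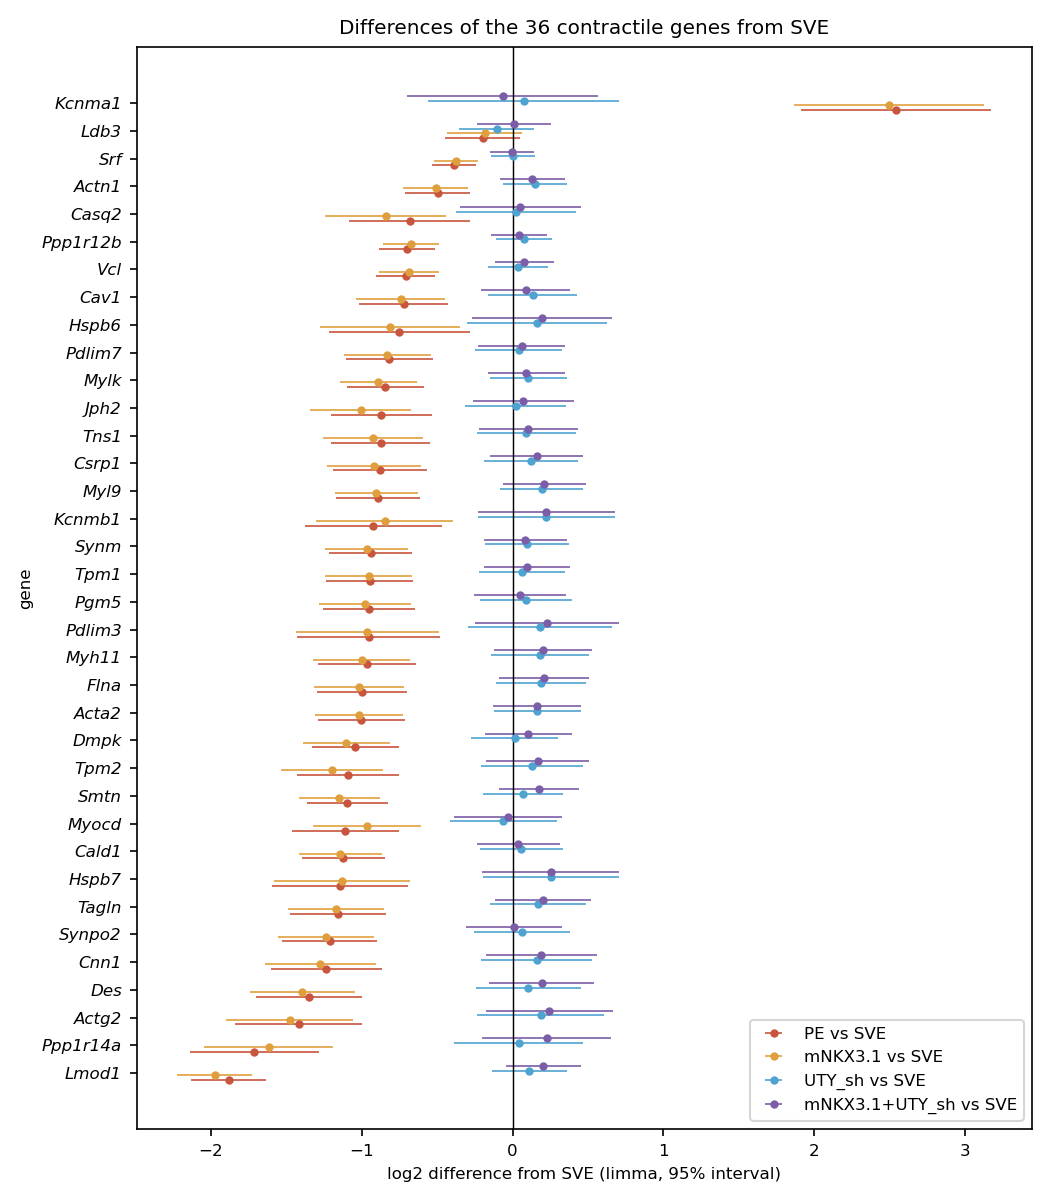
Points are limma's log2 differences from SVE on the deposited scale and bars their 95% intervals, for 36 genes in 4 comparisons that share the SVE libraries. PE and mNKX3.1 lie left of zero for 34 called genes and right of it for Kcnma1 (scaled to the library total, 8 genes in PE and 6 in mNKX3.1 change sign), and intervals of UTY_sh and mNKX3.1+UTY_sh span zero.

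Libraries labelled mNKX3.1+UTY_sh were also set against mNKX3.1. On the deposited scale 34 members were higher and 1, Kcnma1, was lower, with Ldb3 not called (0.19, limma adjusted p = 0.158); scaled to the library total, 13 were higher and 3 lower, 5 genes changed sign (Ppp1r12b, Actn1, Ldb3, Vcl and Srf), and Srf also did when centred on the fibroblast list. Limma called 31.4% of all genes higher and 32.4% lower (63.8% in all). The members' median was 1.08 beside -0.02 over all genes, and no overlap was seen for 34 higher genes and for Kcnma1, beside 30.6% and 31.3% of all genes. With libraries centred on the housekeeping list the shares of all genes called were 49.4% higher and 17.9% lower, on the fibroblast list 11.8% and 55.4%, and scaled to the library total 7.03% and 77.6%. Acta2 read 14.66, 14.51, 14.77 and 14.89 with both labels (1.18 above mNKX3.1, SE 0.14, limma adjusted p = 7.24e-07). Actg2 read 13.26, 13.13, 13.45 and 13.64 (1.72 above, SE 0.20, limma adjusted p = 6.9e-07). Lmod1 read 11.68, 11.62, 11.68 and 11.49 (2.18 above, SE 0.12, limma adjusted p = 2.9e-11). None of the 3 overlapped with mNKX3.1. Kcnma1 read 8.08, 8.02, 8.56 and 9.17, a difference of -2.56 (SE 0.30, limma adjusted p = 7.88e-07).

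Whether the hairpin's difference depended on the construct was tested as an interaction, the step from mNKX3.1 to mNKX3.1+UTY_sh minus the step from SVE to UTY_sh. On the deposited scale 34 members were positive and Kcnma1 negative past an adjusted p of 0.05, beside 24% and 24% of all genes (48.1% in all); scaled to the library total, 3 were positive and 1 negative, and 5 genes changed sign (Ppp1r12b, Actn1, Vcl, Cav1 and Srf). The members' median was 0.99, against -0.02 over all genes. With libraries centred on the housekeeping list the shares of all genes called were 39.2% positive and 13.5% negative, on the fibroblast list 8.82% and 33.3%, and scaled to the library total 5.74% and 71.1%. Lmod1 gave 2.07 (SE 0.17, limma adjusted p = 2.05e-08) and Kcnma1 -2.63 (SE 0.43, limma adjusted p = 6.59e-05). This interaction shares its libraries with the comparisons above. The members' medians in UTY_sh and mNKX3.1+UTY_sh lay only 0.10 and 0.12 from SVE. It therefore largely repeats mNKX3.1 minus SVE with the sign turned, which was -1.97 for Lmod1 and 2.49 for Kcnma1. Ldb3 was not called (0.30, limma adjusted p = 0.148). Hspb6 and Kcnmb1 held calls that single libraries decided. The Hspb6 value of 0.85 (limma adjusted p = 0.0329) lost its call without SVE replicate 1 or 3, without mNKX3.1 replicate 2 or 4, without UTY_sh replicate 1 or 3, or without mNKX3.1+UTY_sh replicate 3 or 4, with values of 0.66 to 0.81. That of Kcnmb1 was 0.85 (limma adjusted p = 0.0283) and lost its call without SVE replicate 3, mNKX3.1 replicate 4, UTY_sh replicate 3 or 4, or mNKX3.1+UTY_sh replicate 3 or 4, with values of 0.70 to 0.79. Ldb3 gained one without UTY_sh replicate 2 (0.42).

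Each group had libraries in which nearly all members deviated from the group mean in the same sense. In SVE replicate 3, 36 of 36 lay above the group mean, with a median deviation of 0.40, and in SVE replicate 2, 35 lay below, with a median of -0.25. UTY_sh replicate 2 had 36 above (0.27) and UTY_sh replicate 3 had 35 below (-0.19). In PE, replicate 1 had 35 above (0.26) and replicate 2 had 35 below (-0.15). The members were split in PE replicate 4 and in UTY_sh replicate 4 (20 above and 16 below in each), in SVE replicate 1 (25 above, 11 below), in PE replicate 3 (11 above, 25 below) and in mNKX3.1+UTY_sh replicate 1 (8 above, 28 below). Over all genes between 45.4% and 57.9% lay above the group mean in a library. The values are already scaled per library, so this share cannot decide whether a whole library shifted. It was 56.4%, 57.9% and 54.9% in PE replicate 1 and mNKX3.1 replicates 1 and 3, where most members lay above. In PE replicate 2 and mNKX3.1 replicates 2 and 4, where most lay below, it was 45.4%, 45.5% and 45.9%. The median of the 20 fibroblast and matrix genes had the members' sign in all libraries but SVE replicate 1, PE replicate 4 and mNKX3.1+UTY_sh replicate 1. In SVE replicate 3, 20 lay above (0.40). They were near evenly split in mNKX3.1+UTY_sh replicate 4 (10 above, median 0.01 beside 0.17 for the members). The same held in PE replicate 3 (9 above, median -0.03 beside -0.10). Their part in the shift was not tested. In SVE replicate 1 they parted, with a median of 0.11 for the contractile genes and -0.07 for the matrix genes. The spread was widest in SVE, where the members' median SD was 0.32 beside 0.17 over all genes, and narrowest in mNKX3.1, at 0.15 beside 0.11.

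**Figure D5:**
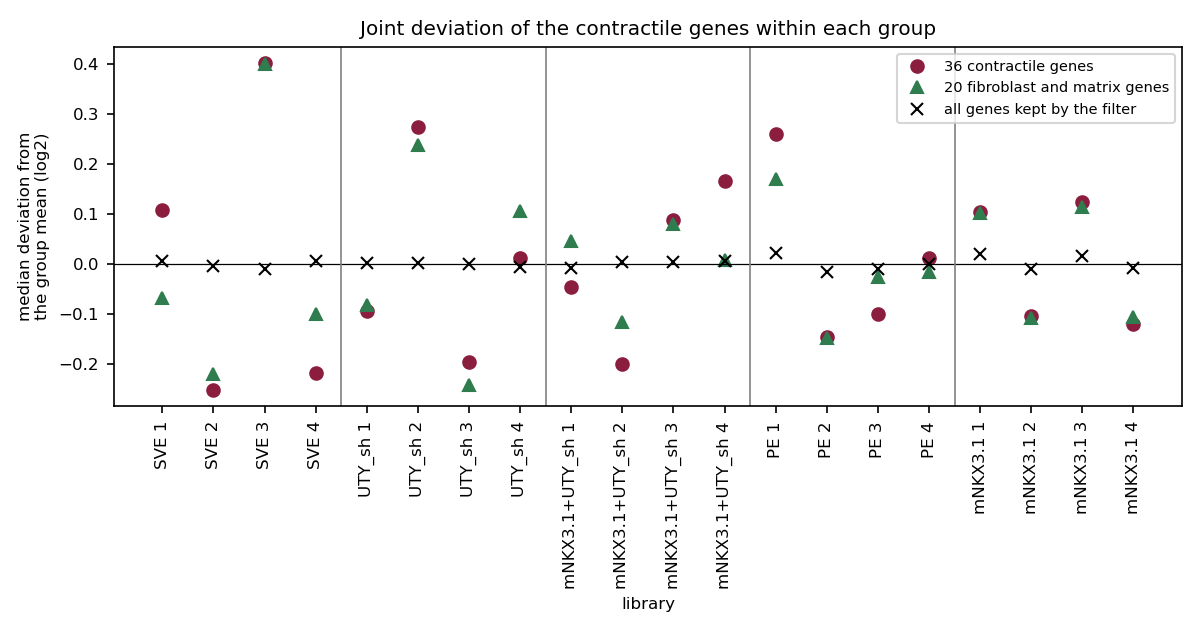
Points give, for each library, the median deviation from its group mean (log2) of the 36 contractile genes, 20 fibroblast and matrix genes and all 13456 genes. The contractile genes range from -0.25 in SVE replicate 2 to 0.40 in SVE replicate 3, while all genes stay near zero.

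The joint variation was measured as correlations of Acta2 with 6 genes across the 12 libraries of SVE, UTY_sh and mNKX3.1+UTY_sh, where values of 1 library share 1 size factor. Des followed Acta2 most closely (Pearson r = 0.976, permutation p = 2e-05, adjusted 6e-05, the smallest that the resamples can give; Spearman rho = 1). Cnn1 gave r = 0.952 (permutation p = 2e-05, adjusted 6e-05; rho = 0.972), and Myh11 r = 0.91 (permutation p = 4e-05, adjusted 8e-05; rho = 0.923, permutation p = 0.00012). Without SVE replicates 2 and 4, the libraries farthest from the median of Acta2, r was 0.957 for Des, 0.937 for Cnn1 and 0.885 for Myh11. The regulators followed less closely. Myocd gave r = 0.702 (permutation p = 0.0104, adjusted 0.0125; rho = 0.643, permutation p = 0.0274) and Srf r = 0.632 (permutation p = 0.0289, adjusted 0.0289; rho = 0.594, permutation p = 0.043). Their r fell to 0.486 and 0.511 without those libraries, so both relations rest partly on them. The matrix gene Col1a1 gave r = 0.812 (permutation p = 0.00208, adjusted 0.00312; rho = 0.783, permutation p = 0.00344) and 0.707 without them. Members outside these 6 genes were not correlated with Acta2. Lmod1 lay below its group mean in SVE replicate 1 (11.09) and mNKX3.1+UTY_sh replicate 4 (11.49), where Acta2 lay above (14.74 and 14.89). In SVE replicate 3 and UTY_sh replicate 2 both genes lay above.

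Across the 8 libraries of PE and mNKX3.1 the same 6 relations were computed with exact permutation. Myh11 gave r = 0.856 (exact permutation p = 0.00928, adjusted 0.0278; rho = 0.81, p = 0.0218, adjusted 0.0653) and Cnn1 r = 0.839 (exact permutation p = 0.00828, adjusted 0.0278; rho = 0.857, p = 0.0107, adjusted 0.0643). Without PE replicates 1 and 2 they were 0.714 and 0.608. The other 4 did not pass adjustment, with r of 0.656 for Des, 0.657 for Myocd, 0.444 for Srf and 0.747 for Col1a1 (exact permutation adjusted p 0.0985, 0.0985, 0.284 and 0.0676). Their rho values were 0.5, 0.524, 0.69 and 0.571 (exact permutation adjusted p 0.216, 0.216, 0.139 and 0.216).

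Genes around the programme were read in PE against SVE, where scaling to the library total adds 0.77 to each difference below and limma called 30.4% of all genes lower and 31.8% higher. The list of other smooth muscle genes held 86 symbols, some of them older and newer names for the same gene. Of these symbols 78 were found and 72 tested, and 44 were lower and 8 higher, with a median of -0.46. Those with the smallest p were the calcium release channels Itpr1 (-1.60) and Ryr3 (-3.18), the nonmuscle myosin Myh10 (-2.07) and the actin-binding Svil (-1.33). All 4 were lower. The 8 higher genes included Agtr1a (3.65, the largest difference of the list), Actg1 (1.17) and a further nonmuscle myosin, Myh9 (0.71). Of the genes listed here as SRF targets outside muscle, a listing not checked in these grafts, 9 were tested. Of those, 2 were higher (Tuft1 0.56, Mcl1 0.31) and 1 lower (Ankrd1 -0.84), with 6 not called and a median of 0.12. Housekeeping genes were higher in 6 of 13 and lower in 0, led by Ywhaz (0.51), Hprt (0.68), Rpl13a (0.66) and Eef1a1 (0.38).

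Markers of other cell types were read in the same contrast, again beside 30.4% of all genes lower and 31.8% higher, and their part in the contractile difference was not tested. Of 20 fibroblast and matrix genes, 11 were lower and 0 higher, with a median of -0.38, led by Thy1 (-1.34), Col6a1 (-0.94), Col6a2 (-1.04) and Col1a1 (-0.68). Their summed level was 31500 to 46900 normalised reads in SVE and 26900 to 41700 in PE, which overlap. Pericyte genes were lower in 6 of 8 tested, led by Pdgfrb (-0.84), Cspg4 (-0.80), Rgs5 (-0.68) and Cox4i2 (-0.94), and summed to 1550 to 2210 in SVE and 1050 to 1240 in PE. Endothelial genes were lower in 5 and higher in 1 of 10, led by Kdr (-0.96) and Eng (-0.85), and the higher one was Emcn (0.70). They summed to 3160 to 3800 in SVE and 2000 to 2940 in PE. Luminal epithelial genes were higher in 6 and lower in 1 of 7, led by Epcam (1.73) and Cdh1 (0.71), and the lower one was Cldn3 (-0.53). Their sums were 19700 to 25500 in SVE and 31900 to 35200 in PE. Basal genes were lower in 3 and higher in 1 of 4 (Trp63 -1.14, Krt14 -1.14, Krt5 -0.47, Krt15 0.79), with sums of 2570 to 3290 and 1870 to 2700.

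Genes best known from striated muscle summed to less than the contractile genes. Of 18 skeletal muscle genes, 9 stayed below 5 in every library, including the myogenic factors Myod1 and Myog. Of the 8 tested, 5 were lower and 2 higher in PE, led by Neb (-2.64), Acta1 (-1.33), Actn3 (-0.88) and Tnnc2 (-0.84). The 2 higher were Myh1 (1.90) and Ttn (0.62). The list summed to 4080 to 6640 normalised reads in SVE and 2050 to 2610 in PE, against 236000 to 374000 and 129000 to 169000 for the contractile genes. Of 8 cardiac genes, 6 stayed below 5 everywhere, including Actc1, Myh6 and Myh7, and Tnnt2 was lower (-1.20, limma adjusted p = 0.0153).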

How the data were processed

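The authors deposited 1 table of log2 values per gene and library. The submitters' processing notes list, with no role or order, Cufflinks 2.0.2, DESeq, TopHat2 2.0.4, bcl2fastq 1.8.4 and the build mm9. Neither the read counter nor the annotation, nor what was done with reads of rat origin, is given in those notes. Between log2 values of 11 and 13 the antilogs were whole multiples (within 0.1) of a unit per library for 100% of values, and between 8 and 9 for 18.4% to 20.8% (chance gives 20%), so reads per library could be recovered but no count test was run. Low values are compressed: 5801 genes with a mean under 2.5 had a median of 2.27, so differences of low genes are understated.

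Genes with at least 4 libraries at 5 or more were fitted with limma 3.58.1 in R 4.3.3 (trended variance, 1 mean per group, all 20 libraries, Benjamini-Hochberg over 13456 genes), tested on simulated data first. Correlations and ratios used permutation tests in SciPy 1.17.1 (100000 resamples at most). The 5 ratios were chosen after their values were seen; 10 comparisons gave an adjusted p of 0.0286 each. The 36 members, the other gene lists and the comparisons were chosen with earlier results of these data known. Values in every library are given for 11 leading members and for the largest and smallest PE difference in each of 7 roles (21 genes), and for other lists up to 4 called genes with the smallest p. For some of these lists, called genes of the opposite sign are named as well. Sequences are from RefSeq on GRCm38.p6. Precision is limited by 4 libraries a group. Results for 1 gene are not reported here.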

Additional observations from a re-analysis of the deposited data

Results flagged for a closer look

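The step from mNKX3.1 to mNKX3.1+UTY_sh differed from the step from SVE to UTY_sh for 35 of the 36 genes, by limma's interaction term, beside 48.1% of all genes, and for 4 when scaled to the library total. That term uses the same libraries as mNKX3.1 vs SVE and largely repeats it with the sign turned, so it is not a separate result. On the deposited scale the interaction was Acta2 1.01, Actg2 1.53, Tpm1 0.99, Lmod1 2.07, Tagln 1.20 and Cnn1 1.30 among the thin filament genes. The myosin genes gave Myh11 1.02, Mylk 0.88, Ppp1r12b 0.64 and Ppp1r14a 1.8. Des gave 1.48, Smtn 1.25, Vcl 0.73 and Pgm5 0.94. Casq2 gave 0.87, Hspb6 0.85, Hspb7 1.13, Myocd 1.0 and Srf 0.37. Kcnma1 alone among the members was negative, at -2.63. Scaled to the library total, Ppp1r12b, Vcl and Srf changed sign.

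A single library stood far from the other 3 of its group for 3 genes: Cald1 at 13.54 in SVE replicate 3, Flna at 14.13 in mNKX3.1 replicate 3 and Cav1 at 12.25 in UTY_sh replicate 2. With 180 gene and group combinations examined, chance gives about 1 in 20.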

How the results depend on the processing

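Scaling to the library total, chosen after seeing the data, moved the results most: it left 7 members called in PE vs SVE, 9 in mNKX3.1 vs SVE, 16 in mNKX3.1+UTY_sh vs mNKX3.1 and 4 in the interaction. The members' median in PE vs SVE was then -0.18 beside 0.79 over all genes. Values that changed sign were Ppp1r12b 0.0751, Actn1 0.277, Ldb3 0.573, Vcl 0.0642, Cav1 0.0505, Casq2 0.0891, Hspb6 0.0221 and Srf 0.382 in PE vs SVE. In mNKX3.1 vs SVE they were Ppp1r12b 0.105, Actn1 0.269, Ldb3 0.594, Vcl 0.0932, Cav1 0.0384 and Srf 0.406. In mNKX3.1+UTY_sh vs mNKX3.1 they were Ppp1r12b -0.0608, Actn1 -0.136, Ldb3 -0.583, Vcl -0.0145 and Srf -0.408, and in the interaction Ppp1r12b -0.113, Actn1 -0.26, Vcl -0.0248, Cav1 -0.0582 and Srf -0.386. Centred on the fibroblast list, also chosen after seeing the data, Srf in mNKX3.1+UTY_sh vs mNKX3.1 was -0.0563. These shifts follow from the scaling itself, which moves every gene of a library alike.

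Under the other alternatives 31 to 36 members were called in PE vs SVE, 32 to 36 in mNKX3.1 vs SVE and in mNKX3.1+UTY_sh vs mNKX3.1, 28 to 36 in the interaction and 0 in the remaining 3 comparisons. Leaving out each library in turn gave 35 to 35, 35 to 35, 35 to 35, 33 to 36 and 0 to 0. The low end of 32 arose where the filter asked for at least 4 libraries at 8 or more. That filter left Ldb3, Kcnmb1, Casq2 and Myocd untested and changed no call of the others. With libraries weighted, 6.32% of all genes were called in mNKX3.1 vs PE, against 0% in the fit reported, and 0 members. Without the 3 libraries rich in Pbsn the interaction called 29 members, losing Actn1, Pdlim3, Kcnmb1, Cav1, Casq2 and Hspb6. No paired analysis was possible because the labels carry no replicate numbers shared between groups. Depth of 14930000 to 29810000 reads limits mainly Ldb3, Kcnmb1, Myocd, Casq2 and Ppp1r14a, whose values are lowest.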
